A study of Mus musculus with 12 samples.

Results

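Acetate (5 mM) was added for 48 h to 4T1 cells that were also given etomoxir (50 µM) and SB204990 (50 µM), and H3K27ac was compared with that in cells given the inhibitors alone. The members are 4 ChIP-seq libraries of 12: 2 of etomoxir + SB204990 + acetate and 2 of etomoxir + SB204990, chosen by their labelled treatment. 4T1 is a wild-type mouse mammary carcinoma line grown in serum-containing medium, so all 4 libraries come from 1 line that has both inhibitors. The other 8 libraries (vehicle, acetate, etomoxir, etomoxir + acetate) entered the estimate of the spread and the ranking of intervals. Libraries of SB204990 alone were not analysed here. Library names end in 1 of a pair of suffixes, called set 1 and set 2. The labels do not say what a suffix stands for or whether replicates were separate cultures, so a p-value measures only the spread between these libraries.

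H3K27ac is acetylation of lysine on histone H3, placed by the acetyltransferases p300 and CBP and found at active promoters and enhancers. The acetyl group comes from acetyl-CoA. Etomoxir blocks carnitine palmitoyltransferase (Cpt1a), which admits long-chain fatty acids to mitochondria for oxidation, and SB204990 blocks ATP citrate lyase (Acly), which splits exported citrate into acetyl-CoA. Acetate is turned into acetyl-CoA by acyl-CoA synthetases such as Acss2, a route that needs neither enzyme. The comparison therefore asks whether H3K27ac changes when acetate is supplied while both enzymes are inhibited.

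The table gives a value for each of 126464 intervals with a median length of 715 bp. A value is the number of reads in the interval multiplied by a factor of the library, which came from human chromatin (7.5%) added before immunoprecipitation. Each result is given for these deposited values and for the share of the column, which is the value divided by the sum of its column, in ppm (per 1000000 of the column), and does not depend on the factor. ChIP on pooled cells cannot tell more cells carrying the mark apart from more mark per cell. Values in marker genes of the epithelium were present in all 4 libraries: Krt8, a keratin of simple epithelium, had 398 to 493 ppm and Cdh1, which encodes E-cadherin, had 261 to 308. Krt7, Krt18, Krt5 and Rab25, of 30 epithelial genes listed, had no interval assigned to them. An interval is assigned to its nearest gene only, so such a gene may lie inside an interval assigned to a neighbour. Genes of 25 markers of other lineages together had 311 to 367 ppm, and the 30 epithelial genes 3129 to 3526 ppm. Of the former, 11 (Alb, Ttr and Myod1 among them) had no interval assigned, while Apoa1 had 140 to 170 ppm. Pecam1, an endothelial gene, had 71.2 to 79.0 ppm, at about the level of Esrp1, an epithelial splicing factor, at 68.3 to 81.9 ppm.

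One library, etomoxir + SB204990 of set 2, differed from the rest. It held 7179165 reads in intervals, against 12990407 to 13441958 in the other 3 libraries. The weakest decile of intervals held 1.33% of its column, against 0.26% to 0.40% in the other 11 libraries, and the strongest decile held 69.8%, against 74.4% to 79.2%. Its mean correlation with the other libraries across intervals was 0.965 (Pearson, log2 deposited values + 1 of the 63903 intervals tested), and that of every other library was 0.976 to 0.978. Results over all intervals and genes are given with and without it. Without it, the remaining library without acetate is of set 1 and the acetate libraries are of both sets. Factors are on a separate scale in each set, so changes as deposited then also hold a difference of scale.

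H3K27ac summed over all intervals was higher with acetate in both sets. In units of 1000000, the sum was 5.35 without and 8.59 with acetate in set 1, and 7.18 without and 11.3 with acetate in set 2. Both libraries with acetate lay above both without, so the groups did not overlap. Factors were scaled within each set, so values of set 1 and set 2 have no common unit, here and wherever deposited values are set across sets, and the ratio within a set is the firmer measure. The means were 9.93 ± 1.89 vs. 6.27 ± 1.29 in that unit (SD, n = 2), a difference in mean log2 of 0.67 or 1.59-fold. An exact two-sided permutation test gave p = 0.333, which is the smallest that 2 libraries against 2 allow (6 arrangements). For reference, vehicle libraries summed to 6.82 and 7.68.

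The sets reached that ratio differently. In set 1 the reads in intervals were nearly equal (ratio 0.988) and the factor was 1.62 times higher with acetate. In set 2 the reads were 1.81 times higher with acetate, and the factor was lower (ratio 0.867). The ratio of totals was 1.60 in set 1 and 1.57 in set 2, so like totals came from the factor in set 1 and from the number of reads in set 2. When acetate was added to etomoxir without SB204990, the ratio was in the factor in both sets (1.75 and 1.68), and reads changed little (0.973 and 0.981). Without inhibitors, acetate gave total ratios of 1.47 and 1.30, with factor ratios of 1.29 and 1.09. Per the methods, the factor starts from a percentage of human spike-in, and a percentage carries no sequencing depth. If the share of reads is multiplied by the factor, so that depth does not enter, acetate gave a log2 change of 0.70 in set 1 and -0.21 in set 2, with a mean of 0.25. This scaling was chosen after seeing the data.

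**Figure D1:**
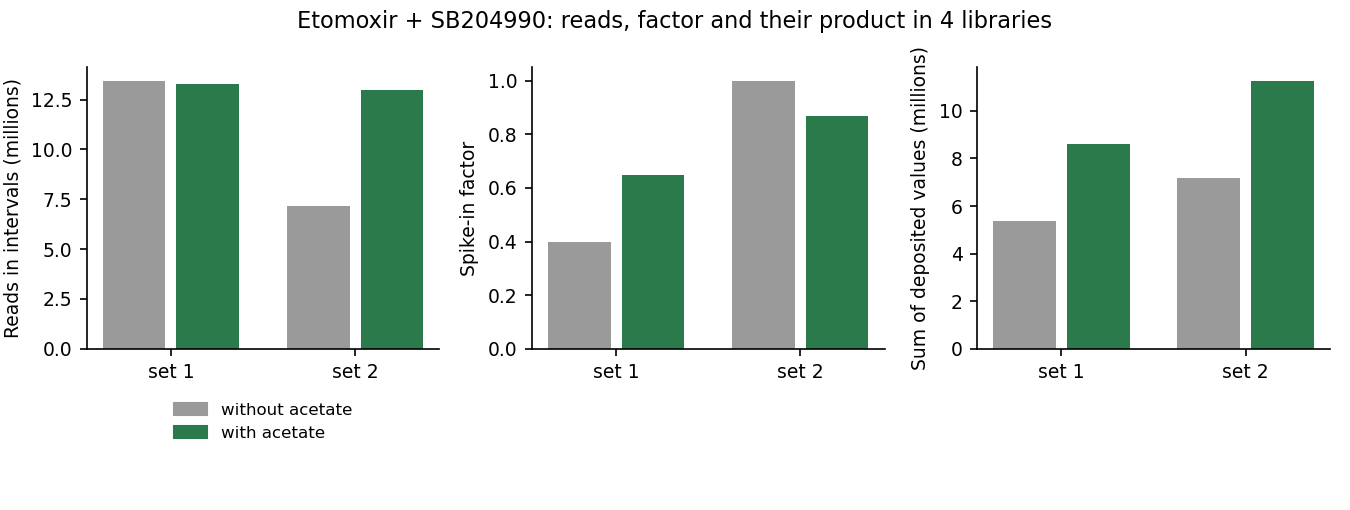
Reads in intervals, spike-in factor and their product, the sum of deposited values (reads and sums in units of 1000000), as bars for each of the 4 etomoxir + SB204990 libraries, without acetate (grey) and with acetate (green). In set 1 the reads are level and the factor is higher with acetate, and in set 2 the reads are higher and the factor lower.

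As deposited, 17483 of 63903 intervals with a mean of at least 10 were called higher with acetate (27.4%; limma, Benjamini-Hochberg adjusted p under 0.05) and 2 were called lower (0.00313%). The median log2 change was 0.62. As share of the column, 0 intervals were higher (0%) and 1 was lower (0.00156%) by limma, with 2138 at an unadjusted p under 0.05, 0 calls by edgeR's quasi-likelihood test on recovered reads, 1 by edgeR with TMM and 2 by DESeq2, all lower. Of the 2138, 1012 were higher and 1126 lower. Without the etomoxir + SB204990 library of set 2, the median log2 change in share was 0.12. Without that of set 1 instead, it was -0.21. The median log2 change in share with all libraries was -0.02. Going from share to deposited values therefore moved the median interval by 0.64 on the log2 scale, and changes of genes and intervals as deposited are to be read against it. The deposited calls rested on the pooled spread of 12 libraries and on its trend with intensity. Without the trend limma called 0, with 22794 at an unadjusted p under 0.05. With only the 4 libraries compared, 1 interval was called, lower, and with the share multiplied by the factor there was also 1, lower. Leaving out 1 of the 4 libraries sets deposited values of set 1 against those of set 2. The counts that follow therefore also hold the difference of scale. Without the etomoxir + SB204990 library of set 2, 45762 were higher, and without the acetate library of set 2, 2116. Leaving out the etomoxir + SB204990 library of set 1 gave 5288 higher and 466 lower.

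Strong intervals were called most. Intervals were put in deciles by their mean share in the other 8 libraries, which none of the 4 libraries compared enters. In decile 10, the strongest, 11484 of 12647 intervals were called higher (90.8%), in decile 9 37.9% and in decile 8 5.92%. The same order followed length, with 1704 of 1707 intervals of at least 20 kb called higher (99.8%) and 300 of 16206 of 400 bp to under 1 kb (1.85%). The median log2 change was 0.70 in decile 10 and 0.49 in decile 6, so the number called differed more than the size of the change. Values given here without 1 library also hold the difference of scale between sets. Without the etomoxir + SB204990 library of set 2 the calls were 98.8% in decile 10, 77.4% in decile 8 and 36.2% in decile 6, and the order of the median change turned, with 0.84 in decile 10 and 1.00 in decile 6. Of intervals of at least 20 kb 99.4% and of those of 400 bp to under 1 kb 41.2% were then called. Among annotation classes, promoter-TSS intervals were called in 2609 of 5772 cases (45.2%), and exon, intron, TTS (transcription end) and intergenic intervals in 25.0% to 27.8%. Without that library these were 80.4% and 70.3% to 73.3%. Promoter intervals were also longer, with a median of 1450 bp against 715 bp overall. Across the 19 autosomes the summed log2 ratio ran from 0.63 to 0.72 in set 1 and from 0.61 to 0.70 in set 2.

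Weak intervals went in opposite directions in the sets. In decile 1, the weakest, the summed deposited value changed by a log2 ratio of 1.09 in set 1 and -1.31 in set 2. In decile 5 the ratios were 0.98 and 0.02, and in decile 10 they came together at 0.63 and 0.79. As share, decile 10 changed by -0.05 in set 1 and 0.14 in set 2. Set 2 holds the library that stood apart, and its part in the values of the weak deciles was not tested. Of the 63903 intervals tested, 77.3% were higher in both sets as deposited, and 99.7% of decile 10. As share, 16.6% were higher in both sets, 19.9% lower in both, and 63.5% moved in opposite directions or not at all. The log2 changes in share of set 1 and set 2 had a Pearson correlation of -0.17 across these intervals, which share libraries and are not independent.

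**Figure D2:**
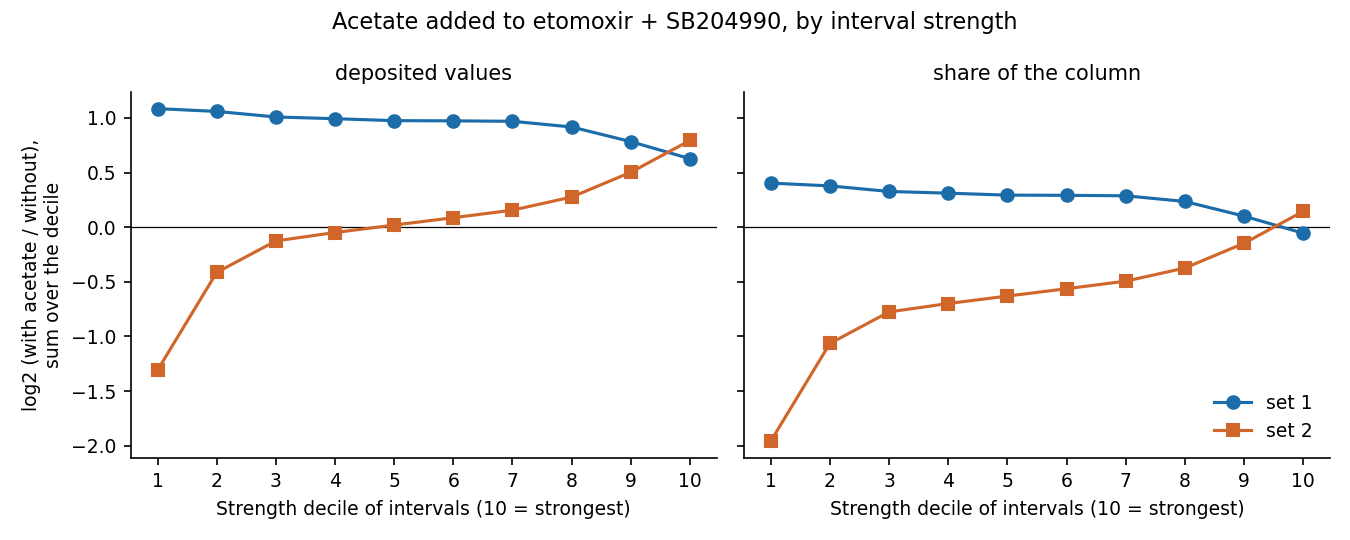
The log2 ratio of summed values with acetate over without (vertical axis) for deciles of intervals ranked by strength in the other 8 libraries (horizontal axis, 10 strongest), for set 1 (circles) and set 2 (squares), as deposited (left) and as share (right). The sets run apart in the weak deciles, from 1.09 to -1.31 as deposited, and meet in the strongest.

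The 5 intervals with the highest share in the other 8 libraries were long domains of 82208 to 174134 bp. They lay over Pvt1, a noncoding RNA gene next to Myc, around Card10, over Sbno2, at the noncoding gene Gm13833 and in Sept9 (chr15:62024683-62192905, chr15:78776366-78858573, chr10:80011190-80178174, chr6:31053616-31151858 and chr11:117191697-117365830, mm10). At Pvt1 the deposited values were 9174 and 12272 without acetate and 14606 and 19863 with it. All 4 values were thus ordered by treatment, and the log2 change was 0.68 ± 0.17 (SE, limma adjusted p = 0.00142). At Gm13833 the values were 8694 and 6737 without and 11024 and 15508 with acetate, so the ratio was smaller in set 1 than in set 2. All 5 were called higher, with log2 changes of 0.68 to 0.82. In share, Pvt1 had 1714 and 1709 ppm without and 1701 and 1763 with acetate, a log2 change of 0.02 ± 0.08 (SE).

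Promoters with the largest higher and the largest lower changes in share are shown by their sequence, 3 in each direction, since they had the largest changes of that direction among promoters that moved alike in both sets. None passed the test in share. The 3 with the largest positive change are Gm15569 (chr15:86185478-86185777, + strand), a noncoding gene whose interval also holds the start of Cerk, a ceramide kinase gene, Fam131b (chr6:42324591-42324890, - strand) and Enah (chr1:182019931-182020230, - strand), which encodes an actin regulator of cell protrusions. The 3 with the largest negative change are Aqp8 (chr7:123462044-123462343, + strand), a water channel gene, Gm31904 (chr10:10234829-10235128, - strand) and Idi1 (chr13:8885356-8885655, + strand), an isomerase of the mevalonate pathway to cholesterol. Each sequence is RefSeq's (GRCm38.p6), 250 bases before to 50 after the start and 5′ to 3′, and was required to lie inside the interval. Capitals mark matches on either strand to the AP-1 motif (TGANTCA), the CRE (TGACGTCA), the E-box (CACGTG), the GC box (GGGCGG), the CCAAT box (CCAAT), ETS (CCGGAAG), the TATA box (TATAAA) and TEAD (GGAATG), which may overlap.
Gm15569: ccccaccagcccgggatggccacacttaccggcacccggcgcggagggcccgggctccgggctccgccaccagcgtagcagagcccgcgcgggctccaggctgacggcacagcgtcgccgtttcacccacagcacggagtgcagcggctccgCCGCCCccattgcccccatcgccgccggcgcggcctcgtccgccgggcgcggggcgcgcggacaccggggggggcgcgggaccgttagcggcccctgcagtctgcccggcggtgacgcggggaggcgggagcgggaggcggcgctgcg
Fam131b: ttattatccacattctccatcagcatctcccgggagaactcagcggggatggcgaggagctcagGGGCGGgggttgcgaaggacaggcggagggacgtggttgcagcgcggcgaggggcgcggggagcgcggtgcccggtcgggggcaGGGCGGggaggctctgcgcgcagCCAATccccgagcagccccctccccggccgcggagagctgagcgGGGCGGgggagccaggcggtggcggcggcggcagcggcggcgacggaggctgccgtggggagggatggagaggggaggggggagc
Enah: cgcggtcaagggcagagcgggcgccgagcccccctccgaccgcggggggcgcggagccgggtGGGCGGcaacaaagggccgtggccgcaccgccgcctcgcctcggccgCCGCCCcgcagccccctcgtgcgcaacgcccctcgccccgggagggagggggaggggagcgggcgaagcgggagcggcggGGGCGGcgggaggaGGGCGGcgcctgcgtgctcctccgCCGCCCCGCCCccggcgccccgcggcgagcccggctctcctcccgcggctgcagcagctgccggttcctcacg
Aqp8: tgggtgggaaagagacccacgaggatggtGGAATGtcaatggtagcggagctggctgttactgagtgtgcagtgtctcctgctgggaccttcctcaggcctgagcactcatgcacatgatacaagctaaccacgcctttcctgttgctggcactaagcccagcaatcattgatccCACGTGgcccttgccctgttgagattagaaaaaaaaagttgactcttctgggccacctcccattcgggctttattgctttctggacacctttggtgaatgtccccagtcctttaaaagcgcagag
Gm31904: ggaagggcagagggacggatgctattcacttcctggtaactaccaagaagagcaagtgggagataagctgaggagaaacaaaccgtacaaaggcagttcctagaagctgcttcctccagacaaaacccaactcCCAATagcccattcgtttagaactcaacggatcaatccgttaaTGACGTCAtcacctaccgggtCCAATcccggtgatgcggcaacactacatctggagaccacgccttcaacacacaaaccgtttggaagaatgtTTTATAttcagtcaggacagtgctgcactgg
Idi1: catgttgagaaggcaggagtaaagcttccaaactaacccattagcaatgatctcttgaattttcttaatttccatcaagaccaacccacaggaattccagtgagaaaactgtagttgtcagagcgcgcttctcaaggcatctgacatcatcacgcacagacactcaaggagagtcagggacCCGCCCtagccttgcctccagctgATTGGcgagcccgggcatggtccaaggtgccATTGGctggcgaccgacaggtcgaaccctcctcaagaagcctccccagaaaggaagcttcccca

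The 3 promoters higher in share were richer in G and C. They held 80%, 75% and 83.3% G or C with 47, 34 and 49 CpG, and those lower in share held 52%, 49% and 52.3% with 6, 11 and 9 CpG. The median over 32851 RefSeq promoters was 52.7%. The GC box was found 1, 3 and 6 times in Gm15569, Fam131b and Enah, and 35.7% of all promoters hold one. Among those lower in share it was found once in Idi1. The CCAAT box, held by 37.4% of promoters, was found 2 times in Idi1, 2 times in Gm31904 and once in Fam131b. Aqp8 had an E-box (7.15% of promoters) and a TEAD match (14.7%), and Gm31904 had a CRE (1.79%) and a TATA box (13.6%). AP-1 (7.81%) and ETS (8.86%) letters were in none of the 6. These 6 sequences were chosen, and a match is not a bound site. Within decile 10 of strength, the quintile of intervals highest in G and C had summed log2 ratios of 0.68 in set 1 and 0.84 in set 2, and the lowest quintile 0.58 and 0.72.

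Deposited values at the Enah promoter were 97.6 and 84 without acetate and 188 and 268 with it. The treatments did not overlap, and the log2 change was 1.30 ± 0.23 (SE, limma adjusted p = 5.88e-05). At Gm15569 the values were 40.6 and 50 without and 101 and 138 with acetate, a log2 change of 1.37 ± 0.28 (SE, limma adjusted p = 0.000236). These had, with Fam131b, Plscr4, which encodes a phospholipid scramblase, and Gm49490, whose interval holds the start of C1qtnf6, the largest deposited changes among promoters called, between 1.27 and 1.37. The Idi1 promoter had 107 and 155 without and 127 and 172 with acetate. There the treatments overlapped across sets, and the log2 change of 0.19 ± 0.24 did not pass (limma adjusted p = 0.518). Its share was 20.0 and 21.6 ppm without and 14.8 and 15.2 with acetate, a log2 change of -0.47 ± 0.14 (SE, limma unadjusted p = 0.00324, adjusted p = 1.00).

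Outside promoters, the largest deposited changes among those called were 1.28 to 1.45. One was an intergenic interval at -27546 bp from the start of Ranbp3l (chr15:8937755-8943050), which encodes a nuclear export factor. Its values were 110 and 149 without acetate and 283 and 414 with it, and its shares were 20.5 and 20.8 without and 33.0 and 36.7 with acetate, in ppm. Both sets moved alike, and of all intervals with a mean of at least 50 this had the lowest p for a higher share (log2 change 0.75 ± 0.11 SE; limma unadjusted p = 2.41e-06, adjusted p = 0.0770), which did not pass. The others were an intron of 4632411P08Rik, an intergenic interval near 4930479D17Rik, another near Gm7596 and an intron of Ergic1. The next lowest p for a higher share belonged to introns of Wdr95, Gm16351 and Adamts2, which encodes a procollagen protease, and to an interval near Gm49985, with log2 changes in share of 0.38 to 0.53. The lowest for a lower share belonged to intergenic intervals near Gm47034 and Gm47566 and to introns of Cdh13, Wdr37 and Asic2, with changes of -0.78 to -0.58. None of these passed in share (limma adjusted p = 1.00 for each).

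The intervals called lower were small. One was 218 bp in an intron of Cntnap5a (chr1:115803239-115803456), with deposited values of 12.4 and 60 without and 5.82 and 9.54 with acetate. The 60 is from the library that stood apart, and without it the log2 change was -0.65 (limma adjusted p = 0.189). The other was 260 bp on chromosome Y (chrY:29071024-29071283, nearest gene Gm28986), with 5.97 and 31 without acetate and 0 in both libraries with it. Against 3 reads in each library, the value was at least 3.08-fold lower in set 1 and at least 11.9-fold lower in set 2. It was also the interval called lower in share (limma adjusted p = 0.0029). The other 8 libraries had 9.35 to 31 there. 4T1 came from a female mouse, and reads on the Y chromosome are uncertain because its sequence is repeated elsewhere.

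Values were summed over the intervals that the authors assigned to each gene. As deposited, 11229 of 19458 genes tested were called higher (57.7%) and 1 was called lower (0.00514%), with a median log2 change of 0.64. The treatments did not overlap at 13687 genes (70.3%). As share 0 genes were called in either direction (0%) by limma, with an unadjusted p under 0.05 at 436 that were higher and 469 lower, 0 by edgeR and 1 by DESeq2, and the median change was -0.02. With the set 2 library without acetate left out, the median change in share was 0.05. With the set 1 library without acetate left out instead, it was -0.10. Without the etomoxir + SB204990 library of set 2, 17777 genes were called higher as deposited. Without the acetate library of set 2 there were 0, and likewise 0 with only the 4 libraries or with share multiplied by the factor. Without the etomoxir + SB204990 library of set 2 the median log2 change over all genes was 0.92. In the lists that follow it was for example 0.86 in acetyl-CoA supply, 0.80 in sterol and fatty acid synthesis and 0.93 in epithelial identity. Leaving out the acetate library of set 2 instead gave 0.46 over all genes and 0.46, 0.36 and 0.57 in these lists. Without the etomoxir + SB204990 library of set 1, 3712 genes were called higher and 817 lower. The median log2 change was then 0.35 over all genes. It was 0.38 in fatty acid oxidation, 0.34 in sterol and fatty acid synthesis, 0.46 in matrix and adhesion and 0.61 in epithelial identity. These medians without 1 library also hold the difference of scale between sets. With all libraries, the count called higher in each list stands beside 57.7% of all genes. No member of any list was then called lower as deposited or called in share. Strong intervals were called more often (90.8% in decile 10, 1.52% in decile 6), and the lists were not matched to all genes in strength. How far strength sets the list counts was not tested.

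Genes of acetyl-CoA supply were called higher in 13 of 18 tested, with a median log2 change of 0.65. Acly, the target of SB204990, had 360 and 555 without acetate and 611 and 837 with it. Its treatments did not overlap and it rose by 0.68 ± 0.21 (SE, limma adjusted p = 0.0132), close to the median gene, and its share changed by 0.01 ± 0.08. Cs, which encodes citrate synthase, had 437 and 552 without and 748 and 1014 with acetate, a log2 change of 0.82 ± 0.19 (SE, limma adjusted p = 0.00653). Its share was 81.6 and 76.9 ppm without and 87.1 and 90.0 with acetate. Pdhx, a component of the pyruvate dehydrogenase complex, rose by 0.50 ± 0.21. Acss2, the cytosolic and nuclear acetate-activating enzyme, was among the 5 not called, with Acat2, Idh1 and the lactate and acetate carriers Slc16a1 and Slc16a7. Slc16a7 had 43.8 and 466 without and 114 and 128 with acetate, so the value of the library that stood apart was the highest of the 4. Without that library its log2 change was 1.45.

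In fatty acid oxidation 18 of 24 genes were called higher, with a median of 0.67. Cpt1a, the target of etomoxir, had 1244 and 1644 without and 2024 and 2706 with acetate. It rose by 0.71 ± 0.19 (SE, limma adjusted p = 0.00788), and its shares were 232, 229, 236 and 240 ppm in that order. Acsl4, which activates polyunsaturated fatty acids, rose by 0.79 ± 0.18, and Acadl, the long-chain acyl-CoA dehydrogenase, by 0.65 ± 0.19. Echs1, a hydratase of the same cycle, had shares of 55.3 and 52.1 without and 48.8 and 48.0 with acetate. Of PPAR targets, genes switched on by fatty acid receptors in the nucleus, 7 of 14 were called higher, with a median of 0.55. In share their median was -0.11, with 5 lower in both sets and 1 higher in both, against 3766 and 2966 of 19458 genes. Pdk4, the kinase that turns off pyruvate dehydrogenase, had 1648 and 2191 without and 2339 and 3113 with acetate. It rose by 0.51 ± 0.19 (SE, limma adjusted p = 0.029). In share it had 308 and 305 ppm without and 272 and 276 with acetate, lower in both sets (log2 change -0.16 ± 0.08 SE; limma unadjusted p = 0.0636). Plin2, a coat protein of lipid droplets, rose by 0.76 ± 0.17, Cat (catalase) by 0.65 ± 0.20, and Acot2, a mitochondrial thioesterase, by 0.81 ± 0.21.

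Sterol and fatty acid synthesis genes were called higher in 13 of 25 tested (52%), with a median of 0.59 and of -0.08 in share. In share, 11 of them were lower in both sets and 6 higher in both, against 3766 and 2966 of 19458 genes. At an unadjusted p under 0.05 by limma, 4 genes of the list had a lower share and 0 a higher one. Over all genes this was 469 lower and 436 higher of 19458. The 4, named after their values were seen, encode enzymes of cholesterol synthesis. Idi1 summed over its 6 intervals had shares of 46.1 and 44.0 ppm without and 36.0 and 38.7 with acetate. Cyp51, the lanosterol demethylase, had 35.1 and 32.2 without and 26.9 and 29.1 with acetate. Sqle, squalene epoxidase, had 65.7 and 68.3 without and 56.3 and 59.8 with acetate. Sc5d, a late desaturase, had 101.9 and 93.6 without and 85.9 and 88.3 with acetate. In each the treatments did not overlap in share, which was not counted over all genes. Their log2 changes were -0.27 ± 0.09, -0.26 ± 0.11, -0.21 ± 0.08 and -0.17 ± 0.06 (SE). The limma unadjusted p was 0.0121, 0.0415, 0.0223 and 0.0219, and none passed after adjustment. Without the library that stood apart, the changes in share were -0.30, -0.33, -0.18 and -0.23, with limma unadjusted p of 0.0148, 0.0285, 0.0761 and 0.00587. As deposited all 4 were then called higher, by 0.57, 0.55, 0.70 and 0.65, where the median gene changed by 0.92. As deposited Idi1 (0.39 ± 0.22), Cyp51 (0.40 ± 0.22) and Sqle (0.46 ± 0.21) were not called, nor were others such as Hmgcs1, Fdps, Lss, Nsdhl, Hsd17b7, Stard4, Scd1 and Elovl6. Srebf1, which encodes SREBP-1, and Scd2, a desaturase, rose by 0.81 ± 0.19 and 0.69 ± 0.19.

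**Figure D3:**
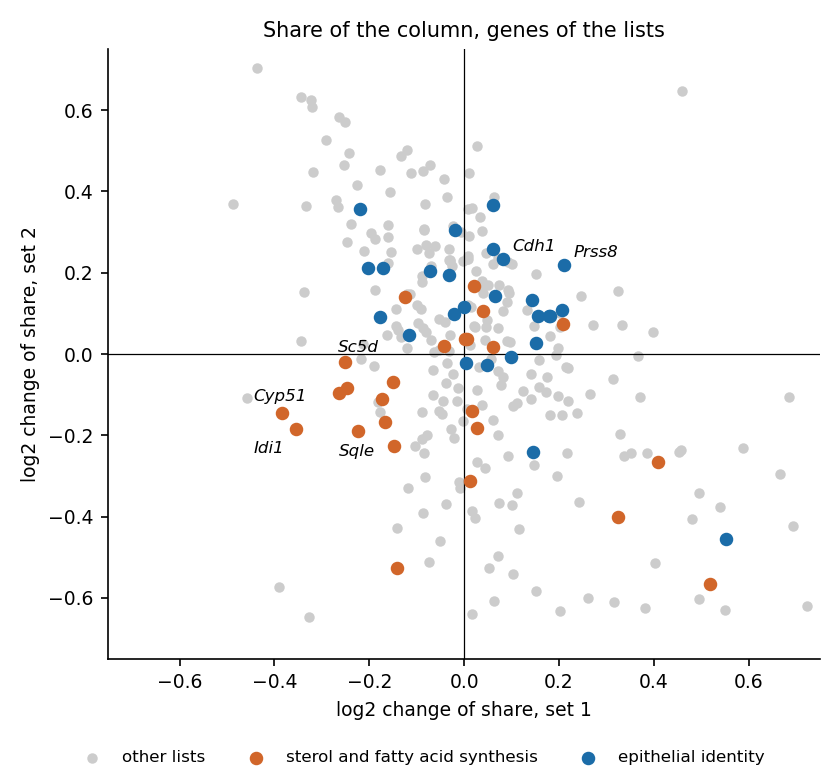
Log2 change in share in set 1 (horizontal) and set 2 (vertical) for genes of the 14 lists, with sterol and fatty acid synthesis in orange and epithelial identity in blue, where 281 of 297 entries lie within the axes, which end at 0.75. Idi1, Cyp51, Sqle and Sc5d lie in the lower left, and Prss8 and Cdh1 in the upper right.

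Among histone acetyltransferases 13 of 16 were called higher, with a median of 0.64. Kat6a rose by 0.67 ± 0.20, Kat5 by 0.68 ± 0.19 and Kat6b by 0.78 ± 0.20, and Crebbp, which encodes CBP, by 0.80 ± 0.22 (SE, limma adjusted p = 0.00811). In share the list ran from -0.31 (Ncoa1) to 0.13 (Crebbp), with a median of -0.03. Deacetylases and acetyl-lysine readers were called in 14 of 18, with a median of 0.69. Sirt7, a deacetylase gene, had 998.9 and 1103 without and 1614 and 2116 with acetate and rose by 0.82 ± 0.18. Hdac5 rose by 0.84 ± 0.21 and Hdac4 by 0.57 ± 0.20.

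Matrix and adhesion genes were called higher in 27 of 32 tested (84.4%), with a median of 0.69, and of 0.03 in share. Col1a1, a chain of type I collagen, had 299 and 441 without and 601 and 771 with acetate. It rose by 0.91 ± 0.21 (SE, limma adjusted p = 0.00653), and its shares were 55.9 and 61.4 without and 70.0 and 68.4 with acetate (log2 change 0.24 ± 0.08 SE; limma unadjusted p = 0.0119, adjusted p = 0.964). Lox, the enzyme that crosslinks collagen, had low values of 19.5 and 38 without and 64.0 and 80.7 with acetate. It rose by 1.37 ± 0.36 (SE, limma adjusted p = 0.00711), and its share changed by 0.72 ± 0.23, which did not pass. Col4a1, Cd44 and Itgb1, the members with the highest share, rose by 0.77 ± 0.18, 0.63 ± 0.17 and 0.68 ± 0.18. Postn (0.60 ± 0.19), Sparc (0.71 ± 0.20) and Itga5 (0.70 ± 0.21), which encode 2 secreted matrix proteins and a fibronectin receptor chain, also rose, each within 0.1 of the median gene. Col3a1 had 7.57 and 69 without and 12.3 and 15.6 with acetate, again highest in the library that stood apart, and was not called.

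EMT factors and TGF-beta genes were called higher in 25 of 30, with a median of 0.71. Smad3 and Smad7, an effector and an inhibitor of TGF-beta signalling, rose by 0.78 ± 0.17 and 0.83 ± 0.19. Smad7 had shares of 835 and 509 without and 702 and 757 with acetate, so its direction differed between sets. Tpm1, a tropomyosin gene, rose by 0.81 ± 0.17, Tgfb1 by 0.83 ± 0.19, and Id2, an inhibitor of helix-loop-helix factors, by 0.89 ± 0.19. Of the EMT transcription factors, Snai1 had 8.76 and 19 without and 27.2 and 39.0 with acetate and rose by 1.26 ± 0.53 (SE, limma adjusted p = 0.043), at values near the minimum. Zeb1 had 10.8 and 17 without and 9.70 and 11.3 with acetate, and was not called (limma adjusted p = 0.591).

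Epithelial identity genes were called higher in 25 of 26 (96.2%), with a median of 0.74. In share 11 were higher in both sets and 0 were lower in both, against 2966 and 3766 of 19458 genes. The median in share was 0.08, below that of AP-1 and TEAD genes (0.09) and of ribosome and housekeeping genes (0.13). Intervals of decile 10 had a median of 0.03 in share, and those of at least 20 kb 0.07. Cdh1 had 1556 and 1873 without and 2643 and 3454 with acetate and rose by 0.82 ± 0.18 (SE, limma adjusted p = 0.00653). Prss8, an epithelial membrane protease, had shares of 74.7 and 73.3 without and 86.5 and 85.3 with acetate, a log2 change of 0.21 ± 0.06 (SE, limma unadjusted p = 0.00472, adjusted p = 0.964). Cldn4, a tight junction claudin, rose by 0.88 ± 0.18, Krt8 by 0.69 ± 0.18 and Jup (plakoglobin) by 0.80 ± 0.19 as deposited. Ovol1 was the member not called.

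AP-1 and TEAD genes were called in 19 of 21 (90.5%), with a median of 0.76 as deposited and 0.09 in share. Junb, an AP-1 subunit, had 2872 and 2523 without and 3867 and 5466 with acetate, log2 ratios of 0.43 in set 1 and 1.12 in set 2. It rose by 0.77 ± 0.18, and Fosl2 and Wwtr1 (TAZ, a partner of TEAD) by 0.85 ± 0.18 and 0.63 ± 0.18. Tead2 had shares of 12.6 and 8.91 without and 17.3 and 14.0 with acetate (log2 change 0.55 ± 0.20 SE; limma unadjusted p = 0.0183, adjusted p = 0.964). Amotl2, Fos and Mafk were likewise at an unadjusted p under 0.05 for a higher share.

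**Figure D4:**
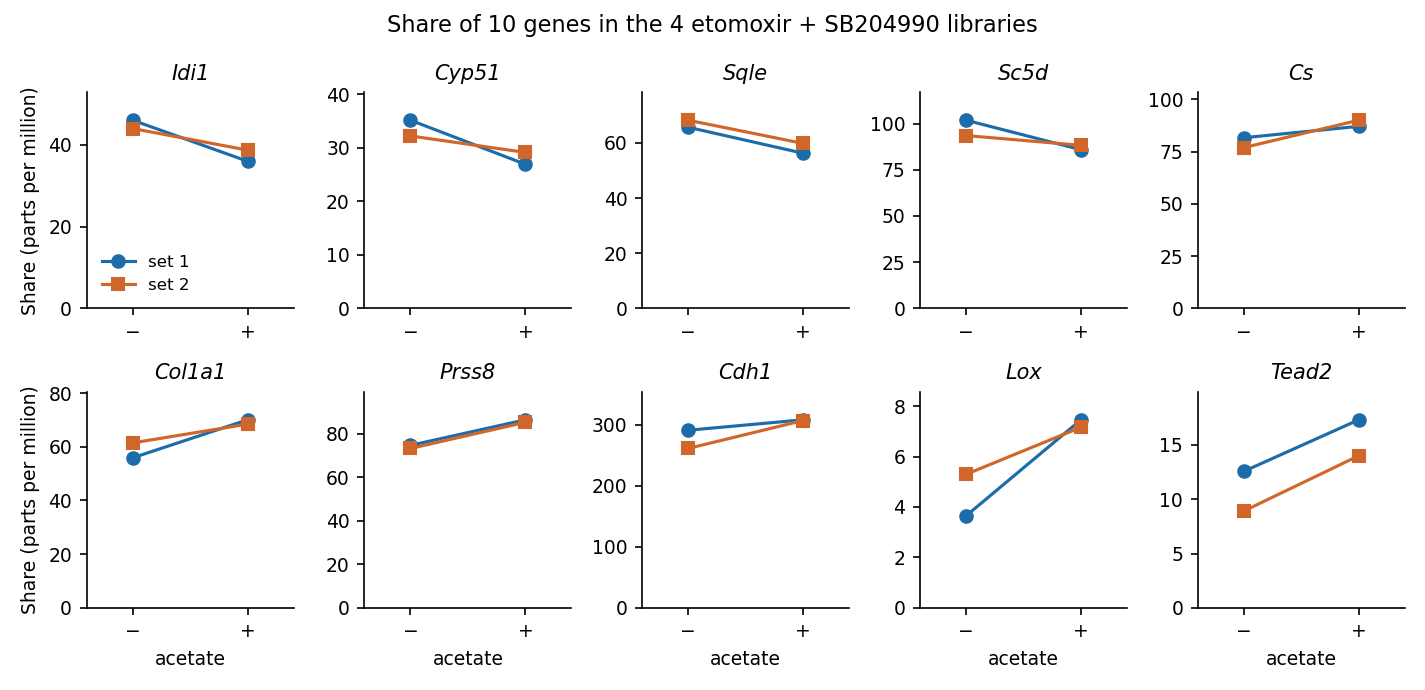
Share of the column (ppm, axes from 0) without (-) and with (+) acetate for 10 genes with an unadjusted p under 0.05 in share, chosen after their values were seen, in set 1 (circles) and set 2 (squares). Idi1, Cyp51, Sqle and Sc5d are lower with acetate in both sets and the other 6 are higher, and none passed after adjustment over 19458 genes.

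Of integrated stress response genes 17 of 22 were called higher (77.3%), with a median of 0.73. Ddit4 rose by 0.77 ± 0.17 and the amino acid transporters Slc7a1 and Slc3a2 by 0.78 ± 0.18 each. Asns and Mthfd2, targets of the ATF4 factor, were not called (0.38 ± 0.25 and 0.44 ± 0.22). In glycolysis 11 of 18 were called (61.1%), with a median of 0.70, and Eno1, Pkm and Aldoa rose by 0.77 ± 0.17, 0.71 ± 0.17 and 0.85 ± 0.17. Ribosome and housekeeping genes were called in 16 of 20, with a median of 0.79. Their medians differed between sets, 0.60 in set 1 and 0.99 in set 2, and in share -0.08 and 0.34. Actb, for example, had shares of 359 and 295 without and 358 and 364 with acetate, so the lower value was that of the library that stood apart. Of the other lineages 5 of 13 tested were called higher (38.5%), led in share by Apoa1, Pecam1 and Snap25.

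**Figure D5:**
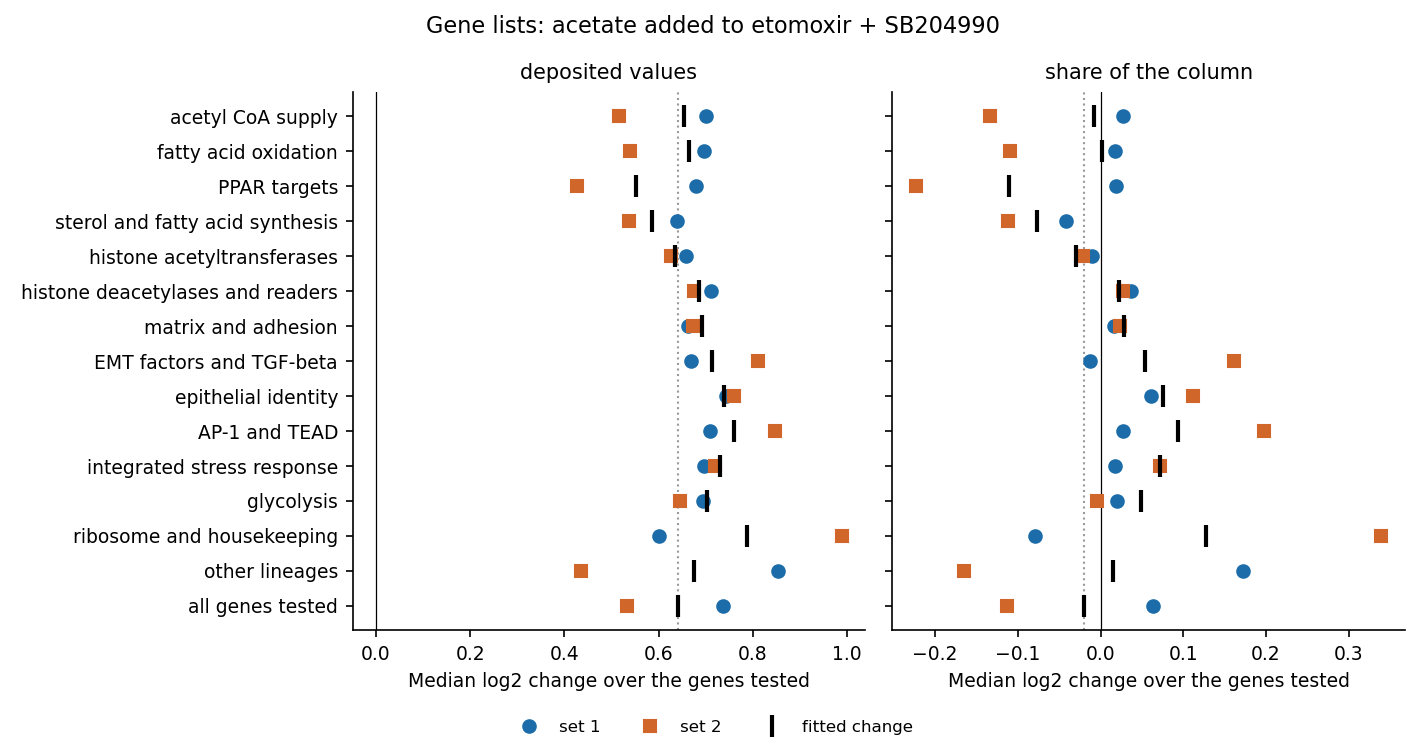
Median log2 change over the genes tested of each list, in set 1 (circles), in set 2 (squares) and as fitted (bars), as deposited (left) and as share (right); the dotted line is the fitted median over all genes, 0.64 and -0.02. The fitted medians lie between 0.55 and 0.79 as deposited and between -0.11 and 0.13 as share.

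The acetate change under both inhibitors was set against that under etomoxir alone, as a test of their difference. As deposited 0 intervals differed upward and 2 downward (0.00313%) of 63903 by limma, and as share there were 0 (0%) by limma, by edgeR and by DESeq2, with 1676 at an unadjusted p under 0.05 by limma (167 upward, 1509 downward). Leaving out the library that stood apart gave 1 interval downward as deposited and 0 as share, with 1178 at an unadjusted p under 0.05 as share (719 upward, 459 downward). The 2 intervals were the one on chromosome Y and one at Gm42418 (chr17:39843038-39847203), where values were 618 and 5093 without and 1738 and 2150 with acetate. The 5093 belonged to the library that stood apart. edgeR on recovered reads called 18 intervals as deposited, all lower under both inhibitors.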

How the data were processed

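H3K27ac ChIP-seq was measured in 12 libraries of 4T1 cells, 2 per treatment. According to the labels and the methods, the authors aligned reads to a merged human (GRCh38) and mouse (mm10, GRCm38) genome with the nf-core/chipseq workflow and used deepTools. The version of the interval caller, and how replicates entered it, is not given in the sources used here. The deposited values are signal, reads per interval times the spike-in factor of that library, and were raw counts in the 2 libraries whose factor was 1. In the other libraries 100% of deposited values came out as whole reads, within 0.001, when divided by the smallest step, so the counts were recovered. Each set has 1 library with a factor of 1, so factors are on a separate scale in each set.

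Members, gene lists and tests were chosen with earlier results of these data known. Intervals and genes averaging at least 10 across the 12 libraries were tested on log2(value + 1), or log2(share in ppm + 0.1), so low values understate changes. limma (3.58.1, R 4.3.3) was fitted to all 12 libraries by treatment, with an intensity trend and Benjamini-Hochberg adjustment. A trial on simulated counts held no spike-in factor and no library that stood apart, so it does not bear on the deposited calls. edgeR (4.0.16) on recovered reads called 17264 intervals (17228 higher, 36 lower), and DESeq2 (1.42.0) was an alternative for shares. Other alternatives were only the 4 libraries, a pseudocount 5 times larger, a mean of at least 50, no filter, no trend, a replicate block, and leaving out each library.

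Intervals were named by rule from those with a mean of at least 50 that moved alike in both sets: the 5 promoters and 5 others called with the largest deposited change, the 5 with the lowest p in share in each direction, and the 5 strongest. In each list the 3 genes with the highest share in the other 8 libraries were named, apart from a result that is not reported here. Pdk4, Acot2, Postn, Col1a1, Sparc and Itga5 were named in addition, and other genes after their values were seen. Total reads in intervals were 7179165 to 16676442, and a count of 3 reads was the floor for libraries at 0; it covers counting error only. No input library was used here, so no background was subtracted. Genes are the nearest genes in the authors' annotation, and some symbols had been turned into dates.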

Additional observations from a re-analysis of the deposited data

Results flagged for a closer look

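At 2 intervals the acetate change under both inhibitors differed from that under etomoxir alone by the test of the difference itself. At Gm42418 (chr17:39843038-39847203) the difference was -1.22 ± 0.25 (log2, SE; limma adjusted p = 0.0234). Under etomoxir the values were 731 and 729 without acetate and 2324 and 1475 with it, log2 ratios of 1.67 and 1.02; under both inhibitors the ratios were 1.49 in set 1 and -1.24 in set 2. Without the etomoxir + SB204990 library of set 2 the difference was 0.30. At the chromosome Y interval nearest Gm28986 the fitted difference was -5.16 ± 0.80 (log2, SE; limma adjusted p = 8.75e-06), with values of 11.4 and 10.3 without acetate and 31 and 24 with it under etomoxir, and 0 in both acetate libraries under both inhibitors; a fitted value against 0 depends on the pseudocount. Why these intervals differ was not tested.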

How the results depend on the processing

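Factor times share, a scaling added after the data were seen, gave a total of 0.25 (log2), 1 called interval and 0 called genes. With only the 4 libraries, 1 interval and 0 genes were called as deposited. Without a filter 11131 intervals were called as deposited, and without an intensity trend 0 (limma; 22794 at an unadjusted p under 0.05). Leaving out 1 library gave 2117 to 45763 intervals and 0 to 17778 genes as deposited, and 0 to 1267 intervals and 0 to 1826 genes as share. The difference from etomoxir gave 0 to 1937 intervals as deposited and 0 to 1561 as share. The highest counts as share and for that difference came without the etomoxir + SB204990 library of set 1, where the library of set 2 stood alone (assumed to vary like the other groups). As share, 0 intervals were called with a larger pseudocount, a mean of at least 50, no trend or edgeR on recovered reads, 1 by edgeR with TMM, 2 without a filter, 2 with the replicate block (1 higher) and 2 by DESeq2, which also called 1 gene. For the difference as deposited, 1 was called with a mean of at least 50, 1 without a filter, 0 without a trend and 18 by edgeR. The Gm42418 change as deposited was -0.55 by edgeR and -1.40 to 1.64 with 1 library left out, its difference from etomoxir -2.74 to 0.30, and the Slc16a7 change -1.93 to 1.45. In each the lowest value came without the etomoxir + SB204990 library of set 1 and the highest without that of set 2. The causes were not tested.

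Samples with the same suffix did not deviate together (correlation of set 1 minus set 2 between treatments -0.09 as deposited, -0.08 as share), and this check cannot see a shift common to a set. The labels do not say that a suffix marks a batch, and factors are scaled within each set. The replicate block gave 20667 intervals and 12648 genes as deposited, and 2 and 0 as share. With 2 libraries a group, changes in weak intervals, which went in opposite directions in the sets, are the least reliable. The part of the library with fewer reads in this was not tested.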
